A study of Mus musculus with 12 samples.

Results

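The genes described here build the hair shaft and its inner root sheath: the hair keratins, the inner root sheath keratins, the keratin-associated proteins (KAPs), trichohyalin (Tchh) and the calcium-binding protein S100a3. They were chosen by gene symbol, from the array's annotation with older names translated to current ones. That choice was made with earlier results of these data known, and a value on some array was also required. Of 37632 probes in the table, 54 carried such a symbol. The probes for Krtap13 and Krtap31-1 had no value on any array, which left 52 probes for 46 genes, of 14709 named genes with a value.

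Papillomas of the mouse tail skin were compared between 2 genotypes. In both, an active form of Sos (son of sevenless), an activator of Ras, was expressed from the keratin5 promoter, so the Ras-Raf pathway was constitutively active in keratinocytes and papillomas formed. The c-Fos-deficient mice (c-Fos Δ/Δ) had a homozygous Fos deletion limited to the epidermis, and the c-Fos-floxed mice (c-Fos fl/fl) kept active c-Fos from floxed alleles. All mice shared a mixed genetic background (129/Ola, C57BL/6, CBA, LVA and B6C3F1) and equal treatment; the sources used here give neither the recombinase that deleted Fos nor the ages. Each group held 3 papillomas from 3 mice, which are named by specimen number: 6, 8 and 9 for c-Fos-deficient and 2, 3 and 5 for c-Fos-floxed. Every papilloma was hybridised on 2 arrays, with exchanged dyes, against a commercial RNA pool of 11 mouse cell lines. A value below is the log2 ratio of papilloma over that pool, averaged over both arrays of a papilloma, and a difference is c-Fos-deficient minus c-Fos-floxed. A whole papilloma is a mixture of cells, so fewer cells of a type and less RNA per cell cannot be told apart.

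A hair fibre is a stack of dead, keratin-filled cells that leaves the matrix of a growing follicle. Type I and type II hair keratins pair into filaments, and cysteine-rich or glycine-tyrosine-rich KAPs embed and cross-link them. Around the rising shaft lies the inner root sheath, which has its own keratins and trichohyalin and is lost before the hair emerges. These genes are switched on in growing (anagen) follicles and are nearly silent in the epidermis between follicles. Mouse tail epidermis is an exception for Krt36, which is made in its scale regions. c-Fos joins a Jun protein to form the transcription factor AP-1.

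Fos, measured first as a check of the labels, was at -4.01, -4.43 and -3.91 in c-Fos-deficient specimens 6, 8 and 9, against -1.30, -0.56 and -1.56 in c-Fos-floxed specimens 2, 3 and 5. The groups did not overlap, and the difference was -2.98 (SE 0.29). Its limma p adjusted over all 18861 features tested was 0.18, and 0 of them passed 0.05 (0.0% called). At an unadjusted p under 0.05, 2238 features (11.9%) differed, 859 higher and 1379 lower in c-Fos-deficient papillomas. The basal keratins Krt5 and Krt14 and the suprabasal Krt1 and Krt10 lay between 3.51 and 5.66 in all 6 papillomas, so each sample held epidermal RNA. Across members the papillomas did not sort by genotype alone: c-Fos-deficient specimens 6 and 8 stood apart from the other 4 papillomas, and results are therefore given per specimen and also without them.

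Most hair genes were high in specimens 6 and 8 and low or without a value elsewhere. Of the 52 probes, 47, 49 and 36 had a value on both arrays in c-Fos-deficient specimens 6, 8 and 9, against 24, 29 and 40 in c-Fos-floxed specimens 2, 3 and 5. These are 90.4%, 94.2% and 69.2%, against 46.2%, 55.8% and 76.9%. Over the whole table the shares were 57.2%, 54.5% and 55.9% in the c-Fos-deficient specimens and 58.0%, 61.3% and 63.5% in the c-Fos-floxed ones, so specimen 8 had the lowest share of all probes and the highest share of hair probes. By array, 91.0% of the 312 possible hair probe values were present in the c-Fos-deficient group (61.7% over all probes), against 67.6% of 312 in the c-Fos-floxed group (65.1%). The whole-table shares include 9046 probes without a value on any array, whereas such hair probes were left out. The hair and whole-table shares are therefore not on a like base, and each can be compared only between papillomas. Specimen 9 had fewer measured hair probes than c-Fos-floxed specimen 5, so the groups overlapped in this count. No hair probe was without a value on all c-Fos-deficient arrays, whereas 4 were without one on all c-Fos-floxed arrays (Krt35, Krt26, Krtap5-3 and Krtap9-1). A hair probe was kept only with a value on some array, and these 4 were kept through c-Fos-deficient arrays alone. Their count therefore supports no difference between the groups. Why a cell of the table is empty is not stated, and an empty cell is not read as a level of 0.

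**Figure D1:**
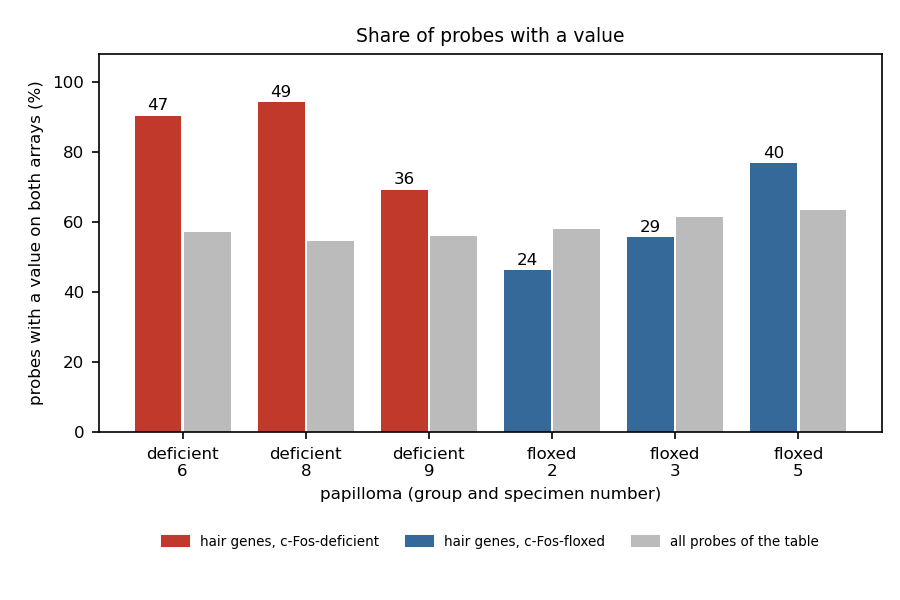
Share of probes with a value on both arrays (vertical axis, percent) in each papilloma, c-Fos-deficient at left and c-Fos-floxed at right; coloured bars are the 52 hair probes, with their count on top, and grey bars all 37632 probes. Specimens 6 and 8 reached 47 and 49 hair probes, specimens 2 and 3 only 24 and 29, while the grey bars stayed between 54.5% and 63.5%. The grey bars include 9046 probes without a value on any array, and the coloured bars include no such probe.

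By their ratios, too, specimens 8 and 6 were highest. Specimens 6, 8 and 9 had 26, 34 and 6 hair probes above a log2 ratio of 3, against 2, 2 and 7 in specimens 2, 3 and 5. Over the 23 probes measured in all 6 papillomas, the median ratio was 1.21, 1.99 and 0.34 in specimens 6, 8 and 9, against 0.25, 0.23 and 0.35 in specimens 2, 3 and 5. Specimen 8 was above specimen 6 in 44 of the 47 probes measured in both. Specimen 9 lay below both of them in 33 of 35 probes, and above c-Fos-floxed specimen 5 in 15 of 33. Within the c-Fos-floxed group, specimen 5 was above specimen 2 in 20 of 23 probes and above specimen 3 in 21 of 27. The Y-linked gene Eif2s3y was at -2.97, 2.64 and 2.04 in specimens 6, 8 and 9, against -3.39, -2.92 and 2.61 in specimens 2, 3 and 5. By this gene alone, specimens 8, 9 and 5 read as male and specimens 6, 2 and 3 as female. The part of sex in these contrasts was not tested. Of the 23 complete probes, 21 were highest in specimen 8, 1 in specimen 6 and 1 in specimen 9; over all 17876 complete probes of the table, specimen 8 was highest in 5467.

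**Figure D2:**
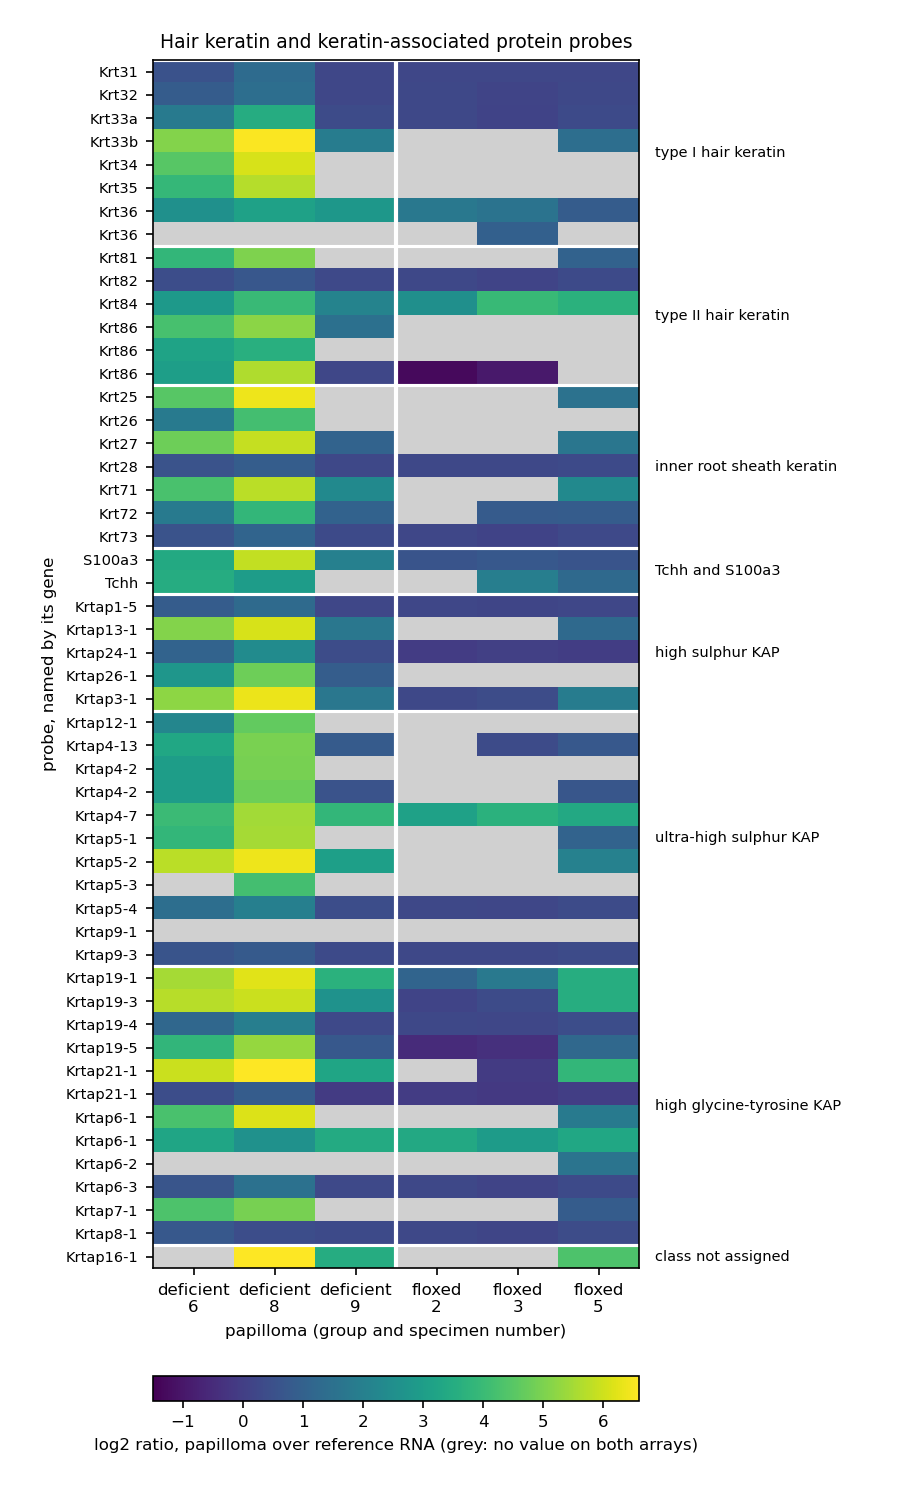
Log2 ratio over the reference RNA (colour scale) of each of the 52 hair probes, in rows named by gene and grouped by protein class, in the 6 papillomas in columns; grey marks no value on both arrays. Specimens 6 and 8 carry nearly all bright cells, specimen 5 several intermediate ones, and specimens 2 and 3 are mostly grey or dark, with Krt84, Krtap4-7 and the lower Krtap6-1 row as exceptions.

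The promoters of these genes are shown because the genes varied together across papillomas. RefSeq promoters (assembly GRCm38.p6, 250 bases before to 50 after the start) were found for 38 of the 45 genes whose symbol names 1 gene. The letters TATAAA, on either strand, occurred in 31 of the 38 (81.6%), against 15.7% of all 27025 genes with a promoter in the table. On the gene's own strand, with its first base 20 to 40 bases before the start, TATAAA occurred in 20 of 38 (52.6%), against 2.41% of all genes. All 7 inner root sheath keratins and all 5 high sulphur KAPs held it in the 300 bases, against 6 of 9 high glycine-tyrosine KAPs. The last 100 bases before the start are given below, with TATAAA in capitals. The promoters of Krt36 (chr11:100105627-100105726, minus strand), Krtap19-1 (chr16:88869411-88869510, minus strand) and Tchh (chr3:93442230-93442329, plus strand) belong to the genes with the smallest unadjusted p in their classes. None of these promoters holds the 6 letters, though those of Krt36 and Krtap19-1 hold the similar run tatataag, which was not counted. Those of Krt34 (chr11:100041555-100041654), Krt25 (chr11:99322952-99323051), Krtap3-1 (chr11:99566631-99566730) and Krtap5-2 (chr7:142176006-142176105), all on the minus strand, were picked after their values and matches were seen, as 1 gene each of 4 classes that was high in specimens 6 and 8.
Krt36: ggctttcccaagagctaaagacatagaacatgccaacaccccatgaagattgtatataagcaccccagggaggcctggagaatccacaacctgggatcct
Krtap19-1: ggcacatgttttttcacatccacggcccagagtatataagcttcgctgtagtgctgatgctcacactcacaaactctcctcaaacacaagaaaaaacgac
Tchh: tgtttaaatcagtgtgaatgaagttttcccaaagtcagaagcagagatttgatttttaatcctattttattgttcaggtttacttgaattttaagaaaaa
Krt34: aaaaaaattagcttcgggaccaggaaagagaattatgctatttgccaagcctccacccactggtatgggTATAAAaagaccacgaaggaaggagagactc
Krt25: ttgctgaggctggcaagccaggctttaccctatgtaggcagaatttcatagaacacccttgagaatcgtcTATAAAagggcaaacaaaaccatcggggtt
Krtap3-1: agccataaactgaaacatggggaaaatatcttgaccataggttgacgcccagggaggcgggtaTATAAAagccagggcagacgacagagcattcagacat
Krtap5-2: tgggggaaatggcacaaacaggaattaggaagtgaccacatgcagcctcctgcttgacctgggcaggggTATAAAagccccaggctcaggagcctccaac

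The AP-1 motif TGANTCA, which reads the same on both strands and cannot overlap TATAAA, occurred in 3 of the 38 promoters (7.89%), against 8.97% of all genes. It is in capitals below, with 10 flanking bases on each side, in Krtap13-1 (chr16:88728638-88728664, plus strand, starting 214 bases before the start), Krtap4-7 (chr11:99644264-99644290, minus strand, 191 bases) and Krtap5-4 (chr7:142303463-142303489, plus strand, 29 bases). A match is a run of letters and not a shown binding site, and the window leaves out distal sites.
Krtap13-1: tacatttcatTGACTCAgacatataaa
Krtap4-7: cttaattcaaTGAATCAtaagaatgta
Krtap5-4: aatcaggaagTGACTCAtgacacctga

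Of the 46 hair genes, 27 had a value in at least 2 papillomas of each group and were tested, and 19 were not. Differences were above 0 in 25 of the 27, against 55.1% of all features. None passed an adjusted p of 0.05, and their limma adjusted p lay between 0.21 and 0.85. At an unadjusted p under 0.05, 9 were higher and 0 lower in c-Fos-deficient papillomas, against 4.55% higher and 7.31% lower of all features. The median difference was 1.01, with a range of -0.39 to 4.08, against a median of 0.03 over all features. A difference of 1 or more was found in 14 of 27 genes, against 0.748% of features. Of the 23 genes with 6 values, 8 did not overlap between the groups and were higher in c-Fos-deficient papillomas (10.9% of all complete features) and 0 were lower without overlap (9.09%). Hair genes missing from the c-Fos-floxed arrays could not enter these counts. Several of the 8 separated only narrowly, with specimen 9 close to a c-Fos-floxed papilloma (Krt33a, Krt73, Krtap4-7, Krtap5-4 and Krtap19-1, given below).

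For most tested hair genes the spread was larger inside the c-Fos-deficient group. The SD was larger there than in the c-Fos-floxed group for 24 of 27 tested hair genes, with a median SD of 0.80 against 0.09. That c-Fos-floxed median includes 15 probes whose c-Fos-floxed array values all lay within 1 of 0. For Krt36, Tchh and Krtap19-3 the c-Fos-floxed SD was the larger (1.91 against 1.85 for Krtap19-3). Over all complete features the SD was larger in the c-Fos-deficient group in 70.1%, with median SDs of 0.20 and 0.12. The count of 9 genes at an unadjusted p under 0.05 became 2 of 26 without specimen 6 (4.21% of all features were higher in that fit), 5 of 26 without specimen 8 (3.76%) and 22 of 27 without specimen 9 (7.74%). It became 3 of 26 without c-Fos-floxed specimen 2 (2.54%), 2 of 23 without specimen 3 (2.94%) and 6 of 24 without specimen 5 (3.92%). With specimens 6 and 8 both left out, a choice made after the values were seen, specimen 9 alone was set against 3 c-Fos-floxed papillomas and assumed to vary like them; 20 of 26 differences were then above 0, and their median was 0.12, with 4.51% of all features higher at an unadjusted p under 0.05. Among genes described below, the difference was then 0.10 for Krt73, 0.38 for Krtap24-1, 0.14 for Krtap5-4, 0.28 for Krtap4-13, 1.28 for Krtap19-3 and 0.59 for Krtap19-5.

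**Figure D3:**
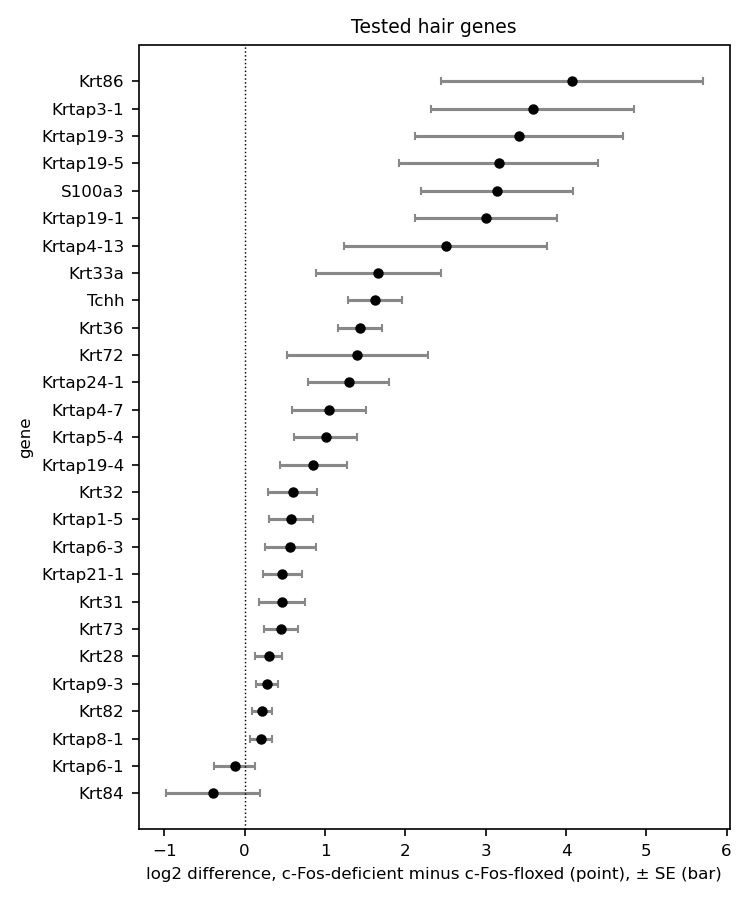
Log2 difference, c-Fos-deficient minus c-Fos-floxed (horizontal axis; point, with a bar of ± 1 SE from limma), for the 27 tested hair genes, sorted by size. Krt86 is highest at 4.08, and Krtap6-1 at -0.12 and Krt84 at -0.39 are the genes below 0.

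Among type I hair keratins, Krt36 had the smallest unadjusted p of all hair genes. It was at 2.57, 3.13 and 2.79 in specimens 6, 8 and 9, against 1.76, 1.58 and 0.86 in specimens 2, 3 and 5. The groups did not overlap, and specimen 9 was as high as specimens 6 and 8, unlike most hair genes. The means were 2.83 ± 0.28 and 1.40 ± 0.47 (SD, n = 3 each), a difference of 1.43 (SE 0.27), or 2.70-fold, with a limma adjusted p of 0.21. Without specimens 6 and 8 the difference was 1.39, with specimen 9 alone in the c-Fos-deficient group. A second Krt36 probe had a value on both arrays only in c-Fos-floxed specimen 3, at 0.98.

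Krt33a, a keratin of the shaft cortex, also separated the groups, but narrowly and mainly through specimens 6 and 8. Its values were 1.84, 3.52 and 0.34 in the c-Fos-deficient specimens, against 0.25, 0.14 and 0.32 in the c-Fos-floxed ones. The difference of 1.66 (SE 0.78, limma adjusted p = 0.48) became 0.10 without specimens 6 and 8. With the papilloma in Cy3 alone, specimen 9 was at 0.02, below specimen 5 at 0.21, so the groups overlapped. Krt31, another cortex keratin, was at 0.55, 1.34 and 0.22, against 0.24 in each of specimens 2, 3 and 5. Krt32, a cuticle keratin, was at 0.85, 1.43 and 0.21, against 0.26, 0.17 and 0.26. In both genes specimen 9 lay within or below the c-Fos-floxed values.

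The remaining type I hair keratins had no value on both arrays of specimens 2 and 3 and were not tested. Krt33b was at 5.10, 6.56 and 1.91 in specimens 6, 8 and 9, against 1.44 in specimen 5. Krt34 was at 4.49 and 6.10 in specimens 6 and 8, and no other papilloma had a value on both arrays. Krt35, which appears early in the hair matrix and cuticle, was at 3.88 and 5.71 in those papillomas and had no value on any c-Fos-floxed array.

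Type II hair keratins, the pairing partners, split into 2 behaviours. Krt86, a cortex keratin, was at 3.03, 5.63 and 0.22 in specimens 6, 8 and 9, against -1.29 and -0.94 in specimens 2 and 3, with no value in specimen 5. The difference was 4.08 (SE 1.63, n = 3 and 2, limma adjusted p = 0.44). Without specimens 6 and 8 it was 1.34, with specimen 9 alone against specimens 2 and 3. A pair of further Krt86 probes read 4.23 and 3.19 in specimen 6 and 5.19 and 3.60 in specimen 8, and neither had a value on both arrays of any c-Fos-floxed papilloma. Krt81, also of the cortex, was at 3.87 and 5.05 in specimens 6 and 8, against 1.03 in specimen 5. Krt82, a cuticle keratin, was at 0.41, 0.70 and 0.28, against 0.25, 0.17 and 0.32.

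Krt84, known in the mouse also from the tongue, did not follow the pattern. It was at 2.84, 3.98 and 2.14 in the c-Fos-deficient specimens, against 2.52, 3.94 and 3.67 in the c-Fos-floxed ones. It was thus well above the reference RNA in every papilloma, the groups overlapped fully, and the difference was -0.39 (SE 0.59, limma adjusted p = 0.79).

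The 7 inner root sheath keratins also peaked in specimen 8. Krt71, a type II keratin whose loss gives curly coats in mice, was at 4.28, 5.77 and 2.35 in specimens 6, 8 and 9, against 2.34 in specimen 5 and no value on any array of specimens 2 and 3. Krt25, a type I keratin of the sheath, was at 4.51 and 6.40 in specimens 6 and 8, against 1.55 in specimen 5. Krt27 was at 4.80, 5.89 and 1.06, against 1.69 in specimen 5. Krt26 was at 1.85 and 4.19 in specimens 6 and 8 and had no value on any array of specimen 9 or of the c-Fos-floxed group. Specimen 5 was thus above specimen 9 in Krt27 and nearly level with it in Krt71.

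Those inner root sheath keratins that could be tested had smaller ratios. Krt72 was at 1.83, 3.86 and 1.05, against 0.82 and 0.86 in specimens 3 and 5 (difference 1.40, SE 0.87, limma adjusted p = 0.59). That difference was 0.60 without specimen 8 and 0.21 without specimens 6 and 8. Krt73 was at 0.59, 1.12 and 0.32, against 0.23, 0.12 and 0.29, which narrowly did not overlap (difference 0.46, SE 0.21, limma adjusted p = 0.48). With the papilloma in Cy3 alone, Krt73 was at -0.11 in specimen 9, below specimen 5 at 0.02, so the groups overlapped. Krt28 was at 0.58, 0.90 and 0.25, against 0.27, 0.26 and 0.30, with specimen 9 the lowest of the 6 papillomas.

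S100a3, a cysteine-rich calcium-binding protein of the hair cuticle, was at 3.42, 5.87 and 2.03 in the c-Fos-deficient specimens, against 0.59, 0.72 and 0.59 in the c-Fos-floxed ones. All 3 c-Fos-deficient papillomas were above all c-Fos-floxed ones, which hardly differed among themselves. The means were 3.77 ± 1.94 and 0.63 ± 0.07 (SD, n = 3 each), a difference of 3.14 (SE 0.95), with a limma adjusted p of 0.31. All its c-Fos-floxed array values lay within 1 of 0, so whether they reflect a level or only background was not tested, and no fold is given. Without specimens 6 and 8 the S100a3 difference was 1.40, with specimen 9 alone in the c-Fos-deficient group. Tchh, the trichohyalin that stiffens the inner root sheath and medulla, was at 3.52 and 2.97 in specimens 6 and 8, against 1.96 and 1.28 in specimens 3 and 5; specimens 9 and 2 had no value on both arrays. The difference was 1.62 (SE 0.34, n = 2 each, limma adjusted p = 0.27), and specimen 6 was above specimen 8, unlike most hair genes. With single arrays admitted, specimen 9 was at 0.64 on its Cy5 array, below both c-Fos-floxed values given, and specimen 2 at 1.42 on its Cy3 array; the difference was then 0.82 (SE 0.76).

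The high sulphur KAPs included the tested KAP with the largest difference. Krtap3-1 was at 5.24, 6.35 and 1.70 in specimens 6, 8 and 9, against 0.25, 0.38 and 1.90 in specimens 2, 3 and 5. Specimen 5 lay above specimen 9, so the groups overlapped. The means were 4.43 ± 2.43 and 0.84 ± 0.92 (SD, n = 3 each), a difference of 3.59 (SE 1.26), with a limma adjusted p of 0.37. Its array values in specimens 2 and 3 lay between 0.15 and 0.62. Whether they reflect a level or only background was not tested, so no fold is given. The difference was 0.86 without specimens 6 and 8, with specimen 9 alone in its group. Krtap24-1 was at 1.07, 2.40 and 0.37, against -0.08, 0.05 and -0.03 (difference 1.29, SE 0.51, limma adjusted p = 0.41), without overlap. Krtap1-5 was at 0.87, 1.29 and 0.21, against 0.22, 0.19 and 0.23. Krtap13-1 was at 5.10, 6.12 and 1.73, against 1.26 in specimen 5, and Krtap26-1 was at 2.75, 4.82 and 0.88 with no c-Fos-floxed value on both arrays; neither was tested.

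Ultra-high sulphur KAPs, the most cysteine-rich class, showed both a gene present in all papillomas and several seen mainly in specimens 6 and 8. Krtap4-7 was at 4.01, 5.49 and 3.86, against 3.13, 3.69 and 3.40. The groups did not overlap by a gap of 0.18 between specimens 9 and 3, and the difference was 1.05 (SE 0.46, limma adjusted p = 0.46), or 0.53 without specimen 8 and 0.46 without specimens 6 and 8. Its relative Krtap4-13 was at 3.33, 4.98 and 0.81, against 0.35 and 0.73 in specimens 3 and 5 (difference 2.50, SE 1.27, limma adjusted p = 0.52). Krtap5-4 was at 1.43, 1.99 and 0.41, against 0.25, 0.21 and 0.34 (difference 1.01, SE 0.40, limma adjusted p = 0.41), and it too narrowly did not overlap. With the papilloma in Cy3 alone, Krtap5-4 was at 0.02 in specimen 9, below specimen 5 at 0.11, so the groups overlapped. All its c-Fos-floxed array values lay within 1 of 0.

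Krtap5-2 had the highest untested ratios of this class, at 5.76, 6.39 and 3.06 in specimens 6, 8 and 9, against 2.06 in specimen 5. Krtap5-1 was at 3.87 and 5.52 in specimens 6 and 8, against 1.08 in specimen 5. The pair of Krtap4-2 probes read 3.01 and 2.99 in specimen 6 and 4.94 and 4.83 in specimen 8, and the second of them also 0.59 in specimen 9, against 0.66 in specimen 5. Krtap12-1 was at 2.22 and 4.66 in specimens 6 and 8 and in no other papilloma on both arrays. It was placed in this class by its family number, and its cysteine content was not checked. Krtap5-3 was measured on both arrays of specimen 8 alone, at 4.17. Krtap9-1 had a single array value in each of specimens 6 and 8 and no papilloma value.

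High glycine-tyrosine KAPs are small proteins of the shaft cortex. Krtap19-1 was at 5.52, 6.23 and 3.68 in specimens 6, 8 and 9, against 1.11, 1.79 and 3.53 in specimens 2, 3 and 5. The groups did not overlap, although specimens 9 and 5 were 0.14 apart. With the papilloma in Cy3 alone, specimen 9 was at 3.66, below specimen 5 at 3.85, so the groups overlapped. The means were 5.14 ± 1.32 and 2.14 ± 1.25 (SD, n = 3 each), a difference of 3.00 (SE 0.89), or 8.00-fold, with a limma adjusted p of 0.30. The difference was 1.53 without specimens 6 and 8, with specimen 9 alone in its group. Krtap19-3 was at 5.72, 5.94 and 2.63, against 0.16, 0.34 and 3.55 (difference 3.42, SE 1.29, limma adjusted p = 0.40). Krtap19-5 was at 3.83, 5.33 and 0.72, against -0.49, -0.36 and 1.24 (difference 3.16, SE 1.24, limma adjusted p = 0.41). In both, c-Fos-floxed specimen 5 was above c-Fos-deficient specimen 9. Krtap19-4 was at 1.21, 1.97 and 0.29, against 0.24, 0.23 and 0.41, and Krtap6-3 at 0.64, 1.52 and 0.29, against 0.25, 0.15 and 0.33.

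Probes named for the same gene disagreed in 2 genes of this class. For Krtap6-1, the probe that entered the test was at 3.26, 2.59 and 3.46, against 3.40, 2.95 and 3.32 (difference -0.12, SE 0.26, limma adjusted p = 0.85), whereas the other was at 4.27 and 6.17 in specimens 6 and 8, against 1.80 in specimen 5. For Krtap21-1, the tested probe was at 0.40, 0.87 and -0.08, against -0.07, -0.16 and 0.01, whereas the other read 5.96, 6.58 and 3.26, against -0.10 and 3.88 in specimens 3 and 5. Taken singly, that second probe gave a difference of 3.38 (SE 1.60, limma adjusted p = 0.51). Probe sequences were not analysed here, and KAP genes of a family are similar enough that a probe could detect more than 1 of them.

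Krtap7-1 was at 4.34 and 4.95 in specimens 6 and 8, against 0.86 in specimen 5, and was not tested. Krtap8-1 was at 0.72, 0.41 and 0.31, against 0.26, 0.18 and 0.40, and Krtap9-3, an ultra-high sulphur KAP, was at 0.60, 0.78 and 0.31, against 0.25, 0.26 and 0.35. Krtap6-2 had a papilloma value only in c-Fos-floxed specimen 5, at 1.63. The symbol Krtap16-1 names a current gene and is also an older name of Krtap19-2, so it was assigned to no class; its probe was at 6.57 and 3.52 in specimens 8 and 9, against 4.34 in specimen 5.

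**Figure D4:**
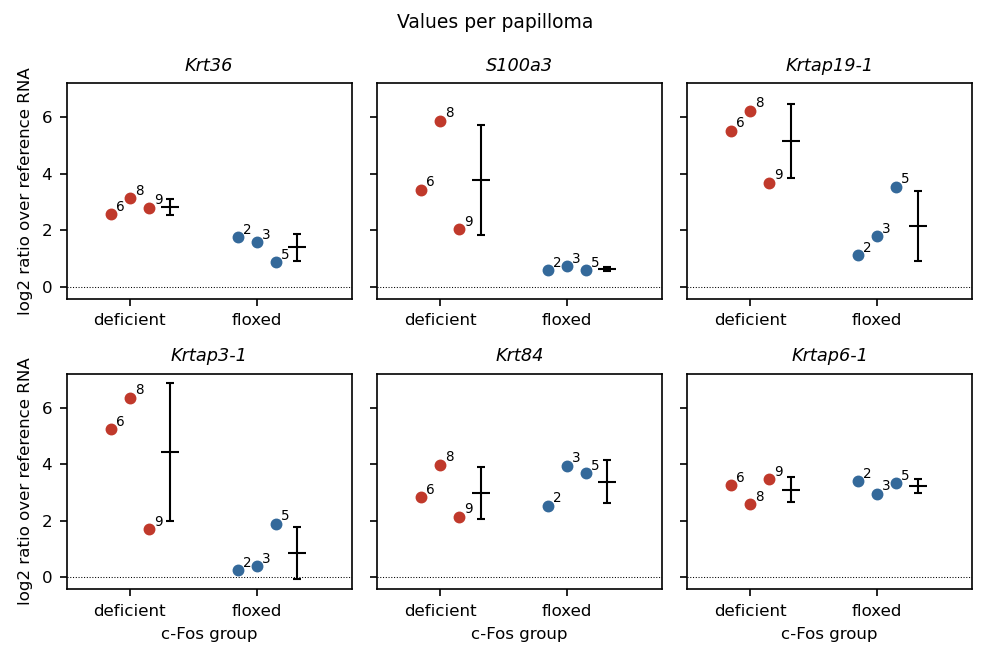
Log2 ratio over the reference RNA (vertical axis) of 6 hair genes in each papilloma, c-Fos-deficient (red) left of c-Fos-floxed (blue), with specimen numbers; the cross and bar are the mean ± SD (n = 3). Krt36 and S100a3 separate the groups, Krtap19-1 and Krtap3-1 have specimen 5 close to or above specimen 9, and Krt84 and Krtap6-1 overlap fully.

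The 19 untested genes have 20 probes. Since most are untested for want of values in the c-Fos-floxed group, their counts describe that filter and support no difference between the groups. They had values on both arrays in 16, 18 and 8 cases in specimens 6, 8 and 9, against 0, 0 and 12 cases in specimens 2, 3 and 5. The ratios ranged from 1.85 to 5.76 in specimen 6 (median 4.08), 4.17 to 6.57 in specimen 8 (median 5.61) and 0.59 to 3.52 in specimen 9, against 0.66 to 4.34 in specimen 5. The genes lie on several chromosomes (GRCm38.p6), and on each of the 3 with most probes specimen 8 was highest and specimen 6 next, while the order of the other papillomas varied. The 20 probes on chromosome 11 had medians of 3.00, 4.88 and 0.59 in specimens 6, 8 and 9, against 0.25, 0.26 and 0.69 in specimens 2, 3 and 5, over the probes measured in each. On chromosome 15 the 9 probes had medians of 3.03, 3.98 and 1.05, against 0.24, 0.17 and 0.95. The 15 probes on chromosome 16 had medians of 3.54, 4.89 and 0.80, against 0.24, 0.16 and 1.25.

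Some probes stayed near a ratio of 0. In 15 probes, S100a3 among them, all 6 c-Fos-floxed array values lay within 1 of 0, with a median of 0.46 on arrays with the papilloma in Cy5 and 0.03 on arrays with it in Cy3. Spot signals were not analysed here, so the part of background in them was not tested. The hair probes also differed between dyes: the median Cy5 minus Cy3 value was 0.71, 0.54 and -0.03 in specimens 6, 8 and 9, against 0.12, 0.19 and -0.35 in specimens 2, 3 and 5, where all probes gave 0.10 to 0.16. With the papilloma in Cy5 alone, 34 of 35 tested hair genes were above 0, and with it in Cy3 alone, 26 of 29.

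Other lists of the skin were then read for the same papillomas; they were written with earlier results of these data known. Of 26 transcription factors and signals of the hair shaft, 23 were tested, 14 lay above 0 and 9 below. At an unadjusted p under 0.05, 1 was higher and 3 lower, and 0 passed adjustment; the median difference was 0.08. Bmp4, a growth factor of follicle differentiation, was at -0.42 and -0.50 in specimens 6 and 9, against -1.11, -0.95 and -1.32 (difference 0.66, SE 0.14, limma adjusted p = 0.24). Prdm1, a transcriptional repressor, was at 0.07, 0.66 and 0.21, against 1.02, 0.93 and 0.74 (difference -0.59, SE 0.18, limma adjusted p = 0.31). Ovol1 was at 1.97 and 2.14 in specimens 6 and 9, against 2.37, 2.69 and 2.67 (difference -0.52, SE 0.14, limma adjusted p = 0.30).

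Several regulators known from the hair matrix, looked up after the rule-based genes, were highest in specimen 8, while specimen 6 was not set apart. Msx2 was at 1.48, 3.26 and 1.55 in specimens 6, 8 and 9, against 1.62, 1.29 and 1.78. Hoxc13, which activates hair keratin genes, was at -0.04, 1.34 and 0.32, against 0.46, 0.17 and 0.15. Lef1, a Wnt effector of the matrix, was at -2.31, -0.71 and -2.76, against -2.56, -2.21 and -2.44. Foxn1 lay between 0.27 and 0.38 in all 6. Specimen 6, whose hair keratins reached 5.10, thus had Msx2 and Hoxc13 ratios at or below some c-Fos-floxed papillomas.

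Of 33 other differentiation genes of the shaft and inner root sheath, 23 were tested, with 9 above 0 and 14 below, 1 higher and 3 lower at an unadjusted p under 0.05, and a median difference of -0.11. Repetin (Rptn) was at 6.12, 6.56 and 6.58, against 5.87, 5.86 and 5.76 (difference 0.59, SE 0.14, limma adjusted p = 0.24). Gsdma was at 5.54, 5.84 and 5.93, against 6.16, 6.35 and 6.57 (difference -0.59, SE 0.15, limma adjusted p = 0.26). Dsc2, a desmosomal cadherin, was at 2.66, 0.88 and 0.69, against 3.32, 3.33 and 2.95 (difference -1.79, SE 0.54, limma adjusted p = 0.31). In the list of the outer root sheath, companion layer and bulge, 13 of 16 tested genes were above 0, 2 at an unadjusted p under 0.05. Lhx2, a transcription factor of follicle stem cells, was at 0.28 and 2.08 in specimens 6 and 8, against -0.87, -0.84 and -0.56 (difference 1.94, SE 0.55, limma adjusted p = 0.32). Krt79 was at 0.96, 1.34 and 0.67, against 0.31, 0.18 and 0.56 (difference 0.64, SE 0.20, limma adjusted p = 0.32), and Nfatc1 gave a difference of 0.16 (SE 0.08, limma adjusted p = 0.52). Of 12 tested dermal papilla and sheath genes, 0 had an unadjusted p under 0.05; Crabp1, Wif1 and Fgf7 gave -0.87, -0.20 and 0.22.

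**Figure D5:**
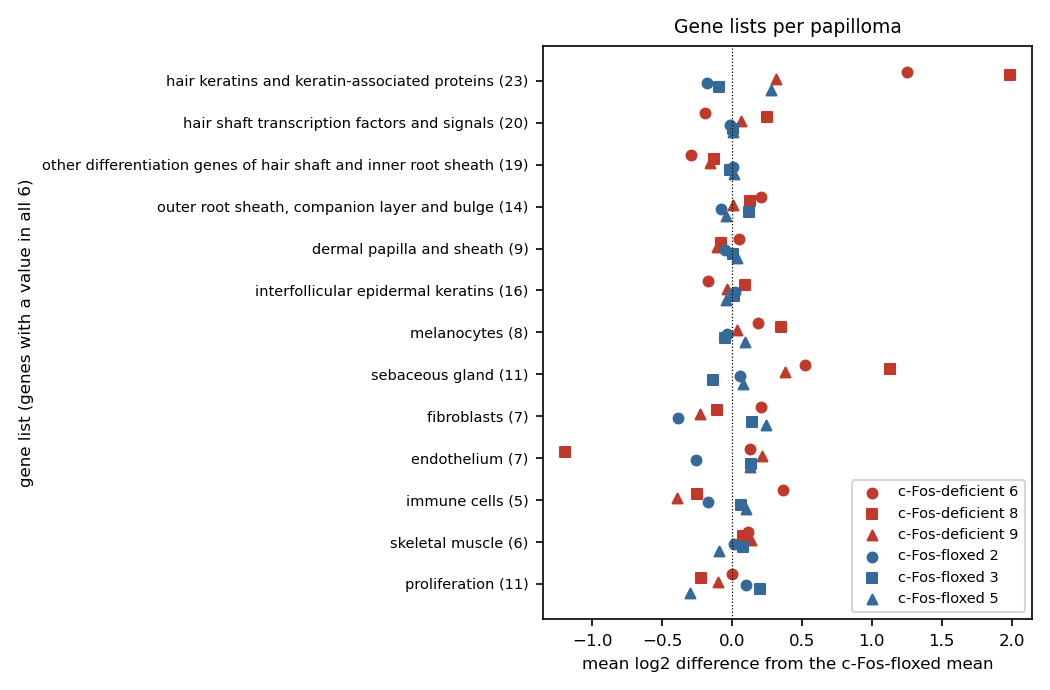
Mean log2 difference from the c-Fos-floxed mean (horizontal axis) over the genes of each list with a value in all 6 papillomas (number in brackets); red points are c-Fos-deficient and blue points c-Fos-floxed specimens. The hair keratins and KAPs reach 1.25 and 1.99 in specimens 6 and 8, and the sebaceous gland list 0.52 and 1.13, while the hair shaft regulators stay between -0.19 and 0.25.

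Markers of other cells moved with the hair genes to different degrees, and their part in the result was not tested. Averaged over the genes measured in all 6 papillomas, as a difference from the c-Fos-floxed mean, the 23 hair genes were at 1.25, 1.99 and 0.32 in specimens 6, 8 and 9, against -0.18, -0.10 and 0.28 in specimens 2, 3 and 5. The 11 complete sebaceous gland genes had the same order of specimens 8, 6 and 9, at 0.52, 1.13 and 0.38, against 0.05, -0.13 and 0.08. Of 14 tested sebaceous genes, 6 were higher and 1 lower at an unadjusted p under 0.05. Mgst1 was at 2.06, 2.70 and 1.39, against -1.14, -0.65 and 0.06 (difference 2.63, SE 0.44, limma adjusted p = 0.20). Elovl6, a fatty acid elongase, was at 1.80, 3.23 and 1.93, against 0.44, -0.17 and 0.35 (difference 2.11, SE 0.42, limma adjusted p = 0.21).

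The 8 complete melanocyte genes were at 0.19, 0.35 and 0.04, against -0.04, -0.05 and 0.09, and all 9 tested lay above 0. Tyrp1, an enzyme of melanin synthesis, was at 1.90 and 2.23 in specimens 6 and 8, against 0.42 and 0.80 in specimens 3 and 5 (difference 1.46, SE 0.21, n = 2 each, limma adjusted p = 0.21). Sox10 was at 1.19, 1.69 and 1.03, against 0.56, 0.70 and 0.81 (difference 0.61, SE 0.19, limma adjusted p = 0.31). Tyr and Pmel, also melanocyte genes, lay between 0.23 and 0.81 in all 6 papillomas, and both were highest in specimen 8 and next in specimen 6. Values of the melanocyte genes Dct, Mlana and Mitf are not given here.

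The remaining lists did not follow the order of specimens 8, 6 and 9. The 7 endothelial genes were at 0.13, -1.19 and 0.21, against -0.26, 0.13 and 0.13, so specimen 8 was lowest; Pecam1 and Eng gave differences of -0.60 and -0.93. The fibroblast list was at 0.20, -0.10 and -0.23, against -0.39, 0.14 and 0.25, with Ogn at 0.67 (limma adjusted p = 0.24) and Dcn at 1.82 (limma adjusted p = 0.31). Of 8 tested fibroblast genes, 5 lay above 0 and 3 below, with a median difference of 0.03. Immune cell genes were at 0.37, -0.25 and -0.40, against -0.17, 0.07 and 0.10, with Cd68 at -0.83 and Ptprc at 0.45. Skeletal muscle genes lay between -0.10 and 0.13, with Tnnt3 at 0.18 and Actn3 at 0.21. Proliferation genes were at 0.00, -0.22 and -0.10, against 0.10, 0.20 and -0.30, with Mcm5 at -0.79 (limma adjusted p = 0.38), Ccnb2 at 0.32 and Aurka at -0.28.

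Keratins of the epidermis between follicles stayed close between papillomas as a list: 16 complete genes were at -0.18, 0.10 and -0.03, against 0.02, 0.02 and -0.04. Of 18 tested, 2 were higher and 3 lower at an unadjusted p under 0.05. Krt2, a keratin of differentiated tail and ear epidermis in the mouse, was the exception in size, at 5.83, 6.10 and 3.47, against 1.28 and 0.82 in specimens 2 and 5 (difference 4.09, SE 0.88, limma adjusted p = 0.24). Its order, specimen 8 above 6 above 9 above the c-Fos-floxed papillomas, resembled that of S100a3. Krt16, a keratin of activated epidermis, was at 5.60 and 5.39 in specimens 8 and 9, against 4.79, 4.83 and 4.88 (difference 0.66, SE 0.10, limma adjusted p = 0.21). Krt13, a keratin of internal squamous epithelia and papillomas, was at -2.01, -2.16 and -2.22, against -0.98, 0.07 and -1.19 (difference -1.43, SE 0.34, limma adjusted p = 0.24).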

How the data were processed

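Values were the deposited log ratios of 2-colour arrays, 1 per probe and array, taken as log2; per the labels' protocols, TRIzol-extracted papilloma RNA was T7-amplified before labelling. How the authors normalized the arrays and corrected background, their log base and why cells are empty is not stated in what was used here. All array pairs correlated positively (r of at least 0.71, dye pairs 0.91 to 0.95), so the arrays share the same direction. Papilloma over reference is the likely one, because the epidermal keratins Krt5, Krt14, Krt1 and Krt10 had ratios of at least 3.51. The table held 37632 probes, 17876 with a value on all 12 arrays and 20811 to 26490 per array; 3 specimens a group limit the precision, and an exact permutation test cannot go below p = 0.1.

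A specimen value needed both arrays. A gene was the mean of its probes with 6 values, otherwise its best-measured probe; unnamed probes stayed single. Features with 2 or more specimens per group (18861: 12006 genes and 6855 unnamed probes) were fitted with limma 3.58.1 (lmFit, eBayes, two-sided, R 4.3.3) with Benjamini-Hochberg adjustment, tested on simulated data first. Of the hair probes, 19 had a current symbol and 33 were updated through RefSeq synonyms. Tables and figures used Python 3.11.15, pandas 2.3.3 and matplotlib 3.10.9. The members, lists and rules were chosen with earlier results of these data known. The rule named Fos, the hair genes by class, those with incomplete or disagreeing probes, and from each list the 3 genes (2 for other cell types) lowest in unadjusted p. Other genes (Krt5, Krt14, Krt1, Krt10, Msx2, Hoxc13, Lef1, Foxn1, Tyr, Pmel) were chosen outside it. A planned comparison of protein composition was not made. Alternatives were other scalings, filters, dye orientations, models and left-out specimens.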

Additional observations from a re-analysis of the deposited data

How the results depend on the processing

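No paired analysis was possible because the groups share no replicate numbers. Across the alternatives, 19 of the 27 hair genes kept their direction in every setting run. The median difference of the hair genes stayed between 0.49 and 1.49, except 0.12 without specimens 6 and 8, an alternative added after the data were seen, which left 4 of 26 hair genes higher at an unadjusted p under 0.05 (4.51% of all features). That count was 16 with all 12 arrays and the specimen as a random block (5.77%), and 21 with specimen weights (8.95%). Leaving out 1 specimen gave 2 to 22 such genes, and 1281 to 3322 of all features; specimen weights gave 3991 features. With the random block, which counts both arrays of a papilloma, 361 features and 2 hair genes (Krtap19-1 and S100a3) passed an adjusted p of 0.05, as did Fos (difference -2.98, limma adjusted p = 0.00128); with the papilloma in Cy3 alone, 1 feature passed. The reversed differences were small for most genes. Without specimens 6 and 8 they were Krt31 (-0.0152), Krt32 (-0.0214), Krt28 (-0.0233), Krtap19-4 (-0.0078), Krtap21-1 (-0.0081), Krtap6-1 (0.24), Eng (0.84) and Ptprc (-0.12). Krt84 became 0.20 with specimen weights. With 1 specimen left out, Krt84 lay between -0.89 and 0.0294 (above 0 without specimen 9) and Krtap6-1 between -0.30 and 0.13 (above 0 without specimen 8). With the papilloma in Cy5 alone, Krtap6-1 was 0.36, Actn3 -0.054, Fgf7 -0.0097, Ovol1 0.11 and Tnnt3 -0.0399, and with it in Cy3 alone Krtap8-1 was -0.0411. Apart from the left-out specimens, the cause was not tested. Median centring and quantile normalization left 25 of 27 hair genes above 0. Counting a probe with a value on at least 1 array gave 52, 52 and 48 probes in specimens 6, 8 and 9, against 31, 40 and 47 in specimens 2, 3 and 5. The number of arrays, empty cells of unknown reason and weak probes near 0 limit all values.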

Other observations

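Genes outside the hair keratins and KAPs shared the contrast of specimens 6 and 8 with the c-Fos-floxed papillomas. Of 10652 named genes with 6 values, 33 (0.31%) had both specimens at least 1 above the highest c-Fos-floxed papilloma, and 8 of these were among the 23 complete hair genes (34.8%); this is a description, since the specimens were singled out after the values were seen. Among the others, the lipocalin Lcn2 was at 0.43, 1.20 and -1.32 in specimens 6, 8 and 9, against -1.72, -1.36 and -1.74 in specimens 2, 3 and 5. Sprr4, a cornified envelope precursor, was at 3.81, 4.35 and 1.57, against 1.57, 1.18 and 2.06. The fatty acid carrier Cd36 was at -1.35, -0.29 and -3.11, against -3.78, -3.89 and -3.07. Pparg, a lipid-related nuclear receptor known from sebocytes, was at -0.09, 0.58 and -0.98, against -1.76, -1.22 and -1.51. Id2 was at -0.44, -0.40 and -1.95, against -1.61, -1.75 and -1.49. In Cd36 and Sprr4 specimen 9 lay within the range of the c-Fos-floxed papillomas, and in Id2 below it.

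In a few of the 33, all 3 c-Fos-deficient papillomas lay at least 1 above all c-Fos-floxed ones. Cers4, a ceramide synthase, was at 2.10, 2.09 and 2.25, against 0.49, 0.61 and 0.91. Slurp1, a secreted epidermal protein, was at 2.55, 2.67 and 4.41, against 0.07, 0.26 and 0.73. Akr1c18 was at 4.46, 4.58 and 5.07, against 2.39, 1.45 and 3.44. In Cers4, Slurp1 and Akr1c18 specimen 9 was the highest papilloma, the opposite of its place among most hair genes. Mgst1 and Elovl6, given above, also met this condition, and in both specimen 8 was the highest. None passed an adjusted p of 0.05 by limma.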
